A study of Mus musculus with 6 samples.

Results

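Hcn2, Hcn3 and Pex5l were followed in ribosome-bound RNA of cortical pyramidal cells from mice given fluoxetine or vehicle. The set was defined by name as 4 genes, Hcn2, Hcn3, Hcn4 and Pex5l, and a probe set was taken where the platform annotation gave it exactly 1 gene symbol equal to one of them. This found 6 of the 45101 probe sets in the table, 1 for Hcn2, 1 for Hcn3 and 4 for Pex5l. The annotation used here names no probe set for Hcn4, so that gene was not analysed here. Of the 6 probe sets, 5 reached a mean intensity of 50 in at least 1 group and were tested, and 1 of Pex5l did not.

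The fluoxetine group holds 3 arrays of mice that drank 0.167 mg/ml fluoxetine in 1% saccharine, and the vehicle group 3 arrays of mice that drank 1% saccharine alone, both for 15 to 18 days. All mice carried the Glt25d2 bacTRAP transgene of line DU9 and had been backcrossed for 3 to 5 generations to C57BL/6 from FVB. In bacTRAP mice a bacterial artificial chromosome carrying the regulatory region of a driver gene, here Glt25d2 (now Colgalt2), expresses a tagged ribosomal protein, and affinity purification of the tagged ribosomes (TRAP) recovers the messages bound to them. A single transgenic line was used, and the labels give neither the age nor the number of mice behind each array. Each array carries RNA of a separate purification from cortex, called a biological replicate and numbered 1 to 3 in each group.

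Which way each difference runs depends on the choice of label. For every array the title, the source name and the treatment tag agree, while the short description names the opposite treatment. Fluoxetine and vehicle arrays are called so here by their titles, and if the description were right every sign would turn while no two-sided p-value would change.

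HCN genes encode the hyperpolarization-activated, cyclic nucleotide-gated channels, cation channels that open when the membrane becomes more negative and carry the inward current called Ih. Binding of cAMP to their cytoplasmic domain eases opening, strongly in Hcn2 and Hcn4 and weakly in Hcn3. Pex5l encodes TRIP8b, a cytoplasmic auxiliary subunit that binds the C-terminal end of HCN channels, sets how many reach the cell surface and the distal apical dendrite, and opposes the effect of cAMP. In layer 5 pyramidal cells Ih lies mainly in the apical dendrite, where it shortens synaptic potentials, and mice without TRIP8b show less immobility in tests used to screen antidepressants.

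Markers of the labelled cells were present on all arrays. Of 12 markers of subcortically projecting layer 5 neurons, 11 reached an intensity of 50, with summed intensities from 42800 to 53480 on fluoxetine and from 45030 to 57200 on vehicle arrays. Much of each sum was Pcp4 alone, at 32190, 24330 and 26850 on fluoxetine and 37140, 26440 and 31350 on vehicle arrays 1, 2 and 3. Markers of other cells were present too: the 10 measured oligodendrocyte markers of 12 summed to between 29250 and 36290 on fluoxetine and between 21230 and 39420 on vehicle arrays, and all 12 astrocyte markers to between 28010 and 35940 and between 19550 and 34840. The 10 interneuron markers summed to between 24180 and 29390 on fluoxetine and between 19820 and 28680 on vehicle arrays. Of 10 vessel markers 6 were tested, with sums from 4467 to 6064 on fluoxetine and from 3964 to 5272 on vehicle arrays. None of these markers was at 0, but the lowest intensity of any probe set was 1.97, so this could not have come out otherwise. Vehicle array 3 stood apart, with the lowest astrocyte, oligodendrocyte, microglia and interneuron sums of the 6 arrays. Median intensity lay between 23.03 and 23.45 on every array. The precision of a difference is limited by the 3 arrays per group and by the spread between replicate numbers: the median SE over all probe sets was 0.18 on the log2 scale, and 0.11 with the replicate number as a block.

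No probe set of these genes differed between the treatments beyond the spread of the replicates. Hcn2 was somewhat higher on the fluoxetine array of each replicate number, Hcn3 had a difference near 0, and the Pex5l probe sets moved in different directions in different pairs of arrays. None of the 5 tested probe sets passed an adjusted p of 0.05 in limma, and none had an unadjusted p under 0.05, where the background over 19073 probe sets was 0% at the adjusted and 0.634% at the unadjusted threshold. With the replicate number as a block the background was 0% at the adjusted and 4.02% at the unadjusted threshold, and again none of the 5 passed either. The groups overlapped for all 5, against a background of 3.65% of probe sets with no overlap in either direction.

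Hcn2, the HCN subunit spread most widely through the brain, was measured by 1 probe set, 1421154_at. Its intensity was 403.9, 549.3 and 517.3 on fluoxetine arrays 1, 2 and 3, against 337.0, 507.0 and 498.6 on vehicle arrays 1, 2 and 3. Both arrays numbered 1 were the lowest of their group, and fluoxetine array 1 lay below vehicle arrays 2 and 3, so the groups overlapped. The means were 490.2 ± 76.4 over fluoxetine arrays and 447.5 ± 95.9 over vehicle arrays (SD, n = 3 each). The log2 difference was 0.14 ± 0.21 (SE), with limma adjusted p = 0.9999 and unadjusted p = 0.515. Its 95% confidence interval, from -0.35 to 0.64, corresponds to a ratio between 0.785 and 1.55. With the replicate block the interval narrowed to between -0.11 and 0.39, a ratio between 0.930 and 1.31, and the adjusted p was 0.993.

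Within pairs of equal replicate number, the log2 difference of Hcn2 was 0.26, 0.12 and 0.053 in pairs 1, 2 and 3, all of them positive. A probe set was higher in all 3 pairs in 10.9% of cases and went one way in all 3 in 24.2%. Without vehicle array 1, the lowest of the 6, the Hcn2 difference turned to -0.049, and without vehicle array 3 it was 0.23. Leaving out 1 array breaks its pair, and with any whole pair left out the difference stayed positive. Vessel markers shared the sign of Hcn2, with a positive difference for all 6 tested, a median of 0.37, and medians of 0.30, 0.53 and 0.22 in pairs 1, 2 and 3. The 4 other vessel markers, Flt1, Pecam1, Tek and Kdr, did not reach the filter and were not tested. Of the 6 tested markers, 5 were higher in all 3 pairs, and Cldn5 was lower in pair 3. With the replicate block, 3 had an unadjusted p under 0.05 in limma, against a background of 3.41% of genes. None passed the adjusted threshold with or without the block. Array by array the order differed. Relative to the mean over all arrays, the vessel median was highest on fluoxetine array 1 (0.45) and lowest on vehicle array 2 (-0.32). Hcn2 was at -0.20 and 0.13 there. All 12 astrocyte markers also had a positive difference, with medians of -0.067, -0.014 and 0.78 in pairs 1, 2 and 3. The part of these markers in the Hcn2 values was not tested. An exact permutation test of the 3 against 3 Hcn2 values, which ignores the pairing, gave p = 0.5 (two-sided), where the smallest p that test can give is 0.1. The spread between replicate numbers thus enters this p-value, and no exact test within pairs was run.

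Hcn3, the subunit that responds least to cAMP, was measured by probe set 1451023_at. Its intensity was 125.8, 109.1 and 120.7 on fluoxetine arrays 1, 2 and 3, against 115.6, 121.5 and 115.4 on vehicle arrays 1, 2 and 3. The fluoxetine values lay on both sides of the vehicle ones, and the highest array exceeded the lowest by a ratio of 1.15, the narrowest range among the 5 tested probe sets. Means were 118.5 ± 8.54 and 117.5 ± 3.44 (SD, n = 3 each). The log2 difference was 0.011 ± 0.12 (limma adjusted p = 0.9999), and its interval, from -0.28 to 0.30, leaves out ratios below 0.823 and above 1.23. Pair differences were 0.12, -0.15 and 0.064. The sign of so small a difference turned with several single arrays left out, among them vehicle array 3 (to -0.0022).

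**Figure D1:**
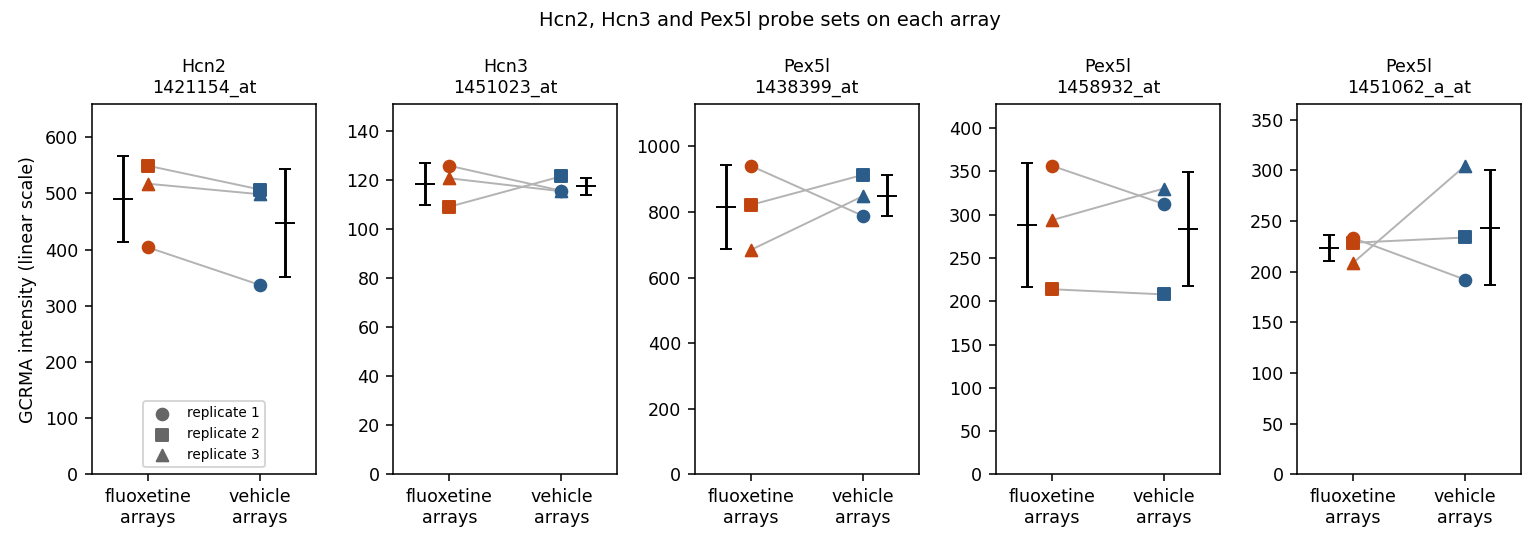
GCRMA intensity (linear scale, from 0) of the 5 tested probe sets of Hcn2, Hcn3 and Pex5l. Each point is 1 array, lines join arrays of equal replicate number, and the bars beside them give the mean and SD of 3 arrays. The groups overlap in all 5 panels. The lines of Hcn2 all run lower on the vehicle side, while those of the other panels cross or differ in slope.

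Pex5l, the auxiliary subunit, was measured by 4 probe sets. They may detect different transcripts, and RefSeq lists 5 curated transcripts of the gene. Probe positions were not at hand, so the probe sets are described one by one, and their levels are not set against each other. The probe set of highest mean, 1438399_at, had 940.9, 821.3 and 683.9 on fluoxetine arrays 1, 2 and 3, against 788.7, 912.9 and 847.9 on vehicle arrays 1, 2 and 3. Fluoxetine array 1 was the highest and fluoxetine array 3 the lowest of the 6, so the fluoxetine values enclosed all vehicle ones. Means were 815.4 ± 129 and 849.8 ± 62.1 (SD, n = 3 each), a log2 difference of -0.069 ± 0.16 (limma adjusted p = 0.9999) with an interval from -0.44 to 0.30. The interval corresponds to ratios between 0.737 and 1.23, and between 0.762 and 1.19 with the replicate block. Without fluoxetine array 3 the difference turned to 0.051, without fluoxetine array 1 it was -0.18, and without vehicle array 3 it stayed at -0.070.

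Probe set 1451062_a_at of Pex5l, whose suffix marks a design that recognises several transcripts of 1 gene, had 233.2, 228.6 and 208.8 on fluoxetine arrays 1, 2 and 3, against 192.2, 233.8 and 304.6 on vehicle arrays 1, 2 and 3. The fluoxetine values were close together and lay within the range of the vehicle ones. Means were 223.5 ± 13.0 and 243.5 ± 56.9 (SD, n = 3 each), a log2 difference of -0.099 ± 0.19 (limma adjusted p = 0.9999). This value rested on vehicle array 3, and without that array it turned to 0.075.

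Probe set 1458932_at of Pex5l varied with the replicate number. It had 356.6, 213.9 and 293.7 on fluoxetine arrays 1, 2 and 3, against 312.4, 207.9 and 330.3 on vehicle arrays 1, 2 and 3. Both arrays numbered 2 were far below the other 4, in either treatment. Means of the treatments were 288.1 ± 71.5 and 283.5 ± 66.1 (SD, n = 3 each), a log2 difference of 0.021 ± 0.25 (limma adjusted p = 0.9999). The fourth probe set, 1446144_at, lay between 4.19 and 4.24 on all 6 arrays, far below the filter of 50, and was not tested.

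None of the 3 tested Pex5l probe sets kept the same direction over all pairs. For 1438399_at the log2 differences in pairs 1, 2 and 3 were 0.25, -0.15 and -0.31. For 1451062_a_at they were 0.28, -0.032 and -0.55, of the same sign in each pair. For 1458932_at they were 0.19, 0.041 and -0.17, with a positive value in pair 2. All 3 probe sets were thus higher on fluoxetine array 1 than on vehicle array 1, and lower on fluoxetine array 3 than on vehicle array 3, although they share those arrays and are no independent evidence of each other. Markers of layer 5 projection neurons had median differences of 0.13, -0.12 and -0.22 in the same pairs, and oligodendrocyte markers -0.15, -0.11 and 0.51. TRAP RNA cannot tell a change in the message per cell from a change in the share of RNA that comes from a cell type, and the part of these marker differences in the Pex5l values was not tested.

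**Figure D2:**
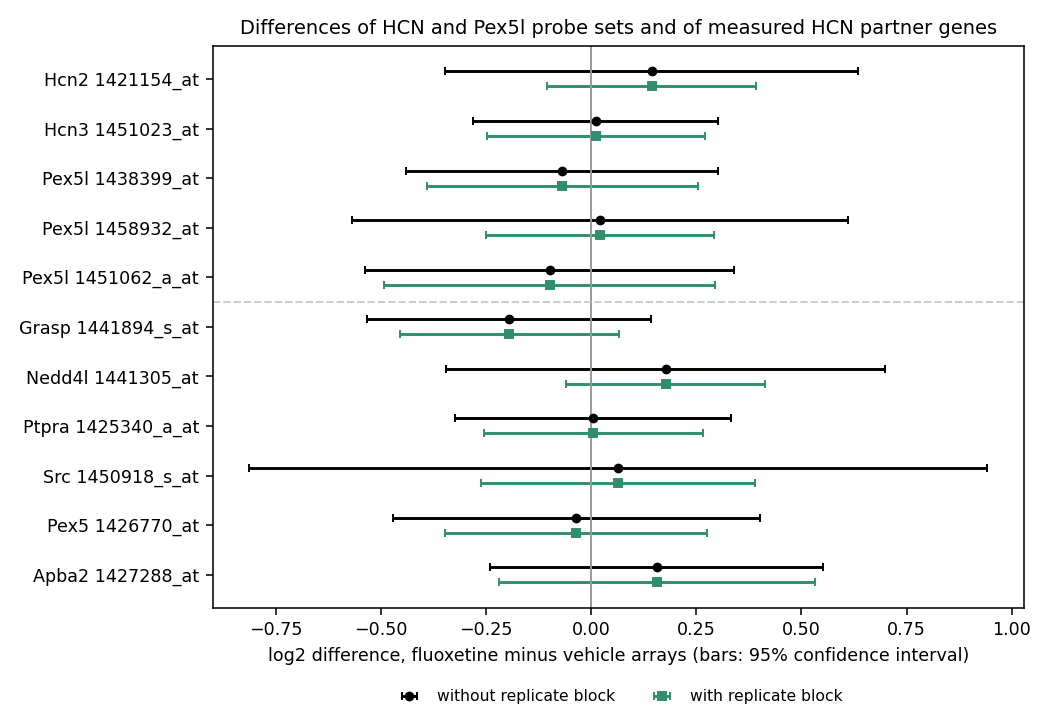
Log2 difference, fluoxetine minus vehicle arrays, with its 95% confidence interval from limma, without (circles) and with (squares) the replicate number as a block, for the 5 tested probe sets of Hcn2, Hcn3 and Pex5l and, under the dashed line, 6 genes whose products bind or modify HCN channels or are related to Pex5l. Every interval contains 0. The block narrows the intervals most for Src, Hcn2, Nedd4l and Pex5l 1458932_at.

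Replicate numbers differed by more than the treatments did for all 5 tested probe sets, and most for Pex5l 1458932_at and Hcn2. The comparison favours the replicate number, since the largest of its differences is set against the only difference between treatments. Averaged over both treatments, Hcn2 had an intensity of 370.4 on arrays numbered 1, 528.1 on those numbered 2 and 507.9 on those numbered 3, so the log2 difference between numbers 2 and 1 was 0.52, against 0.14 between the treatments. Pex5l 1458932_at had 334.5, 210.9 and 312.0 for numbers 1, 2 and 3, a log2 difference of -0.66 between numbers 2 and 1. In an F-test of the replicate term in limma, a test chosen after the values were seen, 14.8% of all probe sets had an adjusted p under 0.05. Pex5l 1458932_at was among them (adjusted p = 0.0411) and Hcn2 was not (adjusted p = 0.0579). For Pex5l 1458932_at the call was lost when all probe sets entered the fit without a filter (adjusted p = 0.130). The term was far from the threshold for Hcn3 (adjusted p = 0.916) and for Pex5l 1438399_at and 1451062_a_at (0.598 and 0.606). Their largest log2 differences between replicate numbers were 0.067, 0.19 and 0.25. On the 2 arrays numbered 2, where Pex5l 1458932_at was low, the marker medians of some other cell classes were high and that of the labelled cells was low. Relative to the mean over all arrays, the median of oligodendrocyte markers was 0.35 on fluoxetine array 2 and 0.52 on vehicle array 2, that of interneuron markers 0.30 and 0.22, and that of astrocyte markers 0.22 and 0.23. For each of these 3 classes these were the highest medians of the 6 arrays. Not every class went this way. Microglia markers were at 0.13 and 0.29 there, below 0.38 on vehicle array 1. Vessel markers were at 0.057 on fluoxetine array 2 and had their lowest median, -0.32, on vehicle array 2. Layer 5 projection neuron markers had their lowest medians on the arrays numbered 2, at -0.16 and -0.047. Single layer 5 markers differed from that median. Rprm, for one, was highest of the 6 arrays on fluoxetine array 2 (1370) and lowest on vehicle array 2 (968.2). The part of these markers in the values of Pex5l 1458932_at was not tested, and the labels do not say what a replicate number stands for.

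**Figure D3:**
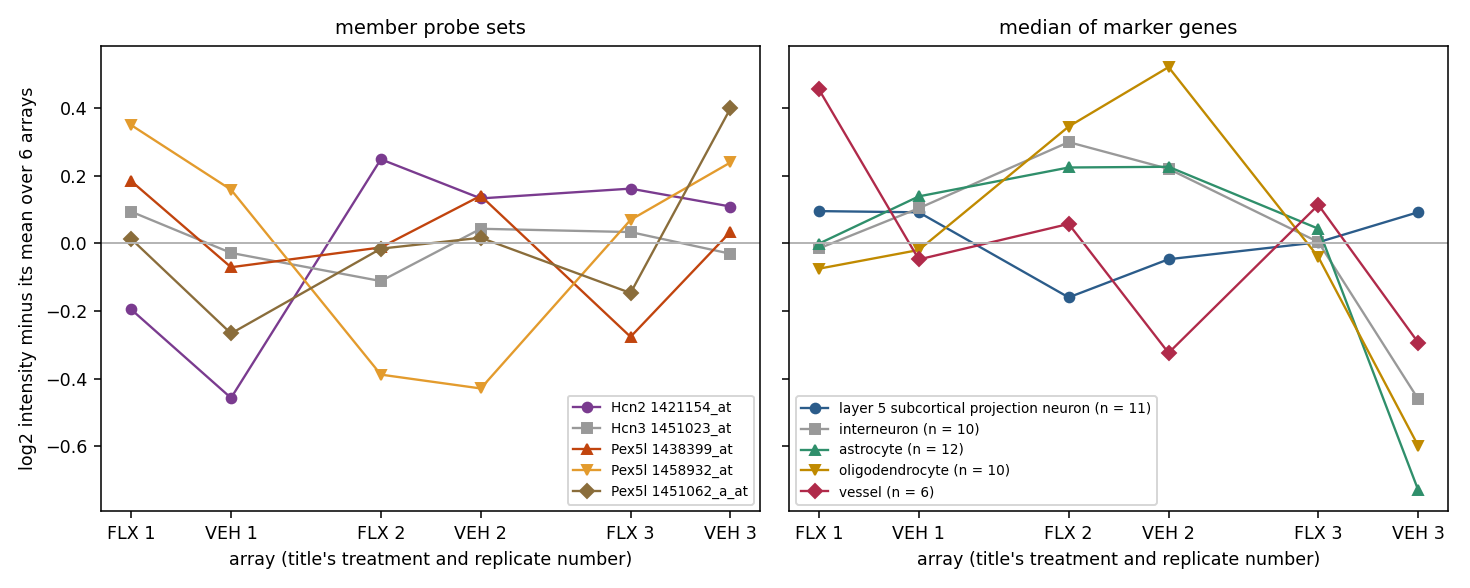
Log2 intensity minus its mean over the 6 arrays, for the 5 tested probe sets (left) and as the median of marker genes of 5 cell classes (right), with fluoxetine (FLX) left of vehicle (VEH) arrays within each replicate number. Hcn2 was low on both arrays numbered 1 and Pex5l 1458932_at on both numbered 2. Astrocyte and oligodendrocyte markers were at medians of -0.73 and -0.60 on vehicle array 3.

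Genes whose products bind or modify HCN channels did not pass the test. Of 14 such genes listed, 11 had a probe set and 6 reached the filter, 4 with a positive and 2 with a negative difference, and the median was 0.034, beside -0.0068 over all 10830 genes. The scaffold gene Grasp (tamalin), which binds Hcn2 protein, averaged 5464 ± 759 on fluoxetine and 6222 ± 217 on vehicle arrays (SD, n = 3 each), a log2 difference of -0.20 ± 0.14 that was negative in all 3 pairs (-0.33, -0.21 and -0.039). The ubiquitin ligase gene Nedd4l had 2444 ± 589 and 2156 ± 468, a log2 difference of 0.18 ± 0.22, and it lay between 0.14 and 0.21 in the 3 pairs. Differences were 0.16 ± 0.17 for the adaptor gene Apba2, 0.064 ± 0.37 for the tyrosine kinase gene Src, 0.0045 ± 0.14 for the tyrosine phosphatase gene Ptpra and -0.036 ± 0.19 for Pex5, the peroxisomal import receptor related to Pex5l. The remaining 5, Mrvi1, Lrmp, Cav3, Kcne2 and Flna, stayed below 50 on every array, with 35.4 for Mrvi1 the highest.

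Other channels with a cyclic nucleotide-binding or related domain were mostly low. Of 14 genes of the Cnga, Cngb and Kcnh families, 11 had a probe set and 4 reached the filter, all of them potassium channels of the Kcnh family, with 1 positive and 3 negative differences and a median of -0.097. Kcnh1 had 292.7, 328.4 and 264.0 on fluoxetine arrays 1, 2 and 3, against 347.2, 413.9 and 370.6 on vehicle arrays 1, 2 and 3, with no overlap between the groups. Its log2 difference was -0.36 ± 0.14 (limma unadjusted p = 0.0411, adjusted p = 0.9999), and its second probe set, 1418414_at, had a difference of -0.11. Kcnh3 and Kcnh2 differed by 0.031 ± 0.32 and -0.00060 ± 0.20.

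Genes that make and break down cAMP, the ligand of HCN channels, did not pass either. Of 22 adenylyl cyclases and phosphodiesterases, 20 reached the filter, 6 with a positive and 14 with a negative difference and a median of -0.059. The 3 brightest were Pde2a, Adcy1 and Pde4b, with log2 differences of -0.13 ± 0.15, -0.036 ± 0.20 and 0.15 ± 0.21. Pde7a, named after its values were seen, was the 1 member of this list with an unadjusted p under 0.05, at 328.8, 332.9 and 441.5 on fluoxetine arrays against 209.4, 296.2 and 243.6 on vehicle arrays (log2 difference 0.56 ± 0.19, limma unadjusted p = 0.0200, adjusted p = 0.9999). Its 3 other probe sets that reached the filter, 1458218_s_at, 1438041_at and 1423313_at, had differences of -0.21, 0.030 and -0.029, so the value is that of 1 probe set.

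None of the channels that act near the resting potential, as HCN channels do, passed the test. Of 22 listed, 17 reached the filter, 7 with a positive and 10 with a negative difference, between -0.17 and 0.17, with a median of -0.045. The brightest were Dpp10, an auxiliary subunit of Kv4 potassium channels (-0.060 ± 0.13), the leak channel gene Kcnk1 (-0.080 ± 0.13) and Kcnip4, another Kv4 subunit (-0.17 ± 0.17). Over the 4 lists, none of 47 tested genes passed an adjusted p of 0.05 in limma with or without the block. At an unadjusted p under 0.05, 2 did, against a background of 0.591% of genes, and with the block 2 did, against 3.41%.

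**Figure D4:**
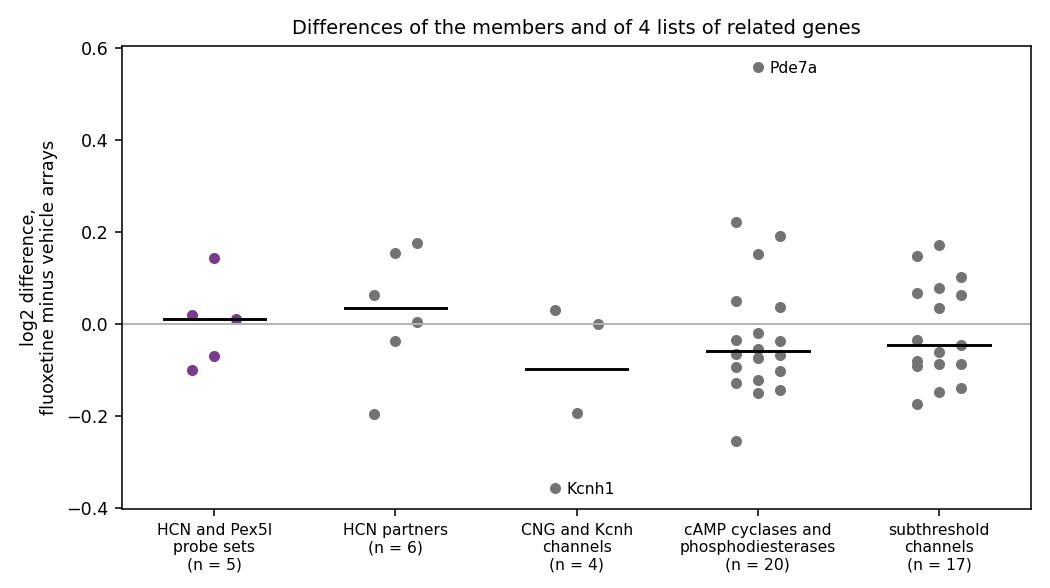
Log2 difference, fluoxetine minus vehicle arrays, of the 5 tested probe sets of Hcn2, Hcn3 and Pex5l and of 4 lists of related genes, 1 point per probe set or gene, with the median as a bar. Pde7a (0.56) and Kcnh1 (-0.36) lie outside the range of the other points, and no point passed the adjusted threshold.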

How the data were processed

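The table deposited for the series holds, for each array, a linear intensity for every probe set. Per the submitters' processing notes it was made with GCRMA, which subtracts background modelled on probe sequence and puts arrays on a common scale; the version is not given in the sources used here. Per the labels' protocols, 15 ng of RNA was amplified in 2 cycles. After 64 control probe sets were left out, those with a mean of at least 50 in at least 1 group were kept (19073), a reading of the submitters' advice. The difference of log2 intensities, fluoxetine minus vehicle arrays, was tested with limma 3.58.1 (R 4.3.3), two-sided, and p-values were adjusted by Benjamini-Hochberg over the whole filtered table. The code was tested on simulated data. In the lists, each gene was read from its brightest probe set. Gene names come from the platform annotation; 34945 probe sets had 1 symbol, 932 carried more than 1 and 9160 are unnamed here.

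Arrays of equal replicate number deviated from their group means together (correlations 0.738, 0.602 and 0.504), so the numbers in the titles pair the arrays. The labels call the arrays biological replicates but do not give the mice behind each, and p-values measure the spread between these arrays. The SD of the log2 difference between any 2 arrays was at least 0.232, and no value was at hand for repeat arrays of 1 RNA. Every probe set of the 4 genes is named, and so are all measured HCN partners and the 3 brightest genes of the other lists. The genes and lists were chosen with earlier results of these data known. Alternatives covered the replicate block, normalization, floors and filters on low values, the variance trend and arrays left out.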

Additional observations from a re-analysis of the deposited data

How the results depend on the processing

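No processing choice made Hcn2, Hcn3 or Pex5l pass the adjusted threshold, and over the alternatives run the smallest adjusted p in limma was 0.993 for Hcn2 and Pex5l and 0.997 for Hcn3. Quantile normalization, median centring and ratios of group means could move the differences, and they kept the sign of all 3. The arrays were already on a common scale, so median centring moved every difference by the same small amount. Hcn2 went from 0.143 to 0.139 and Pex5l 1438399_at from -0.069 to -0.074, so centring could not have turned either sign. The log2 differences ran from 0.13 to 0.14 for Hcn2 and from 0.0050 to 0.013 for Hcn3. For Pex5l they ran from -0.074 to -0.038, including the mean over its 4 probe sets. Both floors, both other filters, the variance trend and the replicate block left the differences unchanged and could not test their sign. The values of these probe sets lay above both floors, and a filter or the trend does not enter the difference. Each block holds 1 array of each treatment, so the block changes only the spread. The replicate block changed no call. Leaving out 1 array or 1 pair gave ranges that include both signs: from -0.049 to 0.28 for Hcn2, from -0.045 to 0.093 for Hcn3, from -0.23 to 0.051 for Pex5l 1438399_at, from -0.29 to 0.12 for Pex5l 1451062_a_at and from -0.19 to 0.22 for Pex5l 1458932_at. For Hcn2 the only turn came without vehicle array 1, which leaves fluoxetine array 1 without its pair. With pair 1, 2 or 3 left out whole, the Hcn2 difference stayed positive (0.084, 0.16 and 0.19). With 3 positive pairs it could not have turned there. The cause of the turns was not tested. The count of probe sets past the adjusted threshold was 0 under every alternative, over all probe sets, the 6 of these genes and the related lists. At an unadjusted p under 0.05 the count over all probe sets was 121, and it was 767 with the replicate block, 920 with no filter, which tests more probe sets, and between 52 and 502 with an array or a pair left out, highest without pair 1. Exact tests of 3 against 3 arrays that ignore the pairing cannot go below p = 0.1. Hcn3 had the lowest intensity of the tested probe sets, and Pex5l 1446144_at was too dim to show a difference.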

Other observations

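The genes whose log2 intensity followed each member most closely over the 6 arrays were picked from 10829 other genes by Pearson's r, as a description without a test. For Hcn2 they were Ankrd42, Scap and Arpc1a (r = 0.997, 0.994 and 0.994), with 153 genes above 0.95. For Hcn3 they were Cep57l1, Chmp1b and Ghr (r = 0.956, 0.955 and 0.954), with 4 genes above 0.95. For Pex5l 1438399_at they were Zfp324, Nrd1 and Lipt1 (r = 0.987, 0.986 and 0.983), with 13 genes above 0.95. All genes share the 6 arrays, and the arrays are paired by replicate number. Among the 10 pairs of tested member probe sets, r ran between -0.58 (Hcn2 with Pex5l 1458932_at) and 0.45 (Hcn2 with Pex5l 1451062_a_at). It was -0.26 between Hcn2 and Hcn3, 0.40 between Hcn3 and Pex5l 1458932_at, and 0.42 between Pex5l 1438399_at and 1451062_a_at, whose differences had the same sign in all 3 replicate pairs.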
